A study of Homo sapiens with 4 samples.

Results

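Oxidative phosphorylation subunits are the protein parts of the 4 respiratory chain complexes and of the ATP synthase, which is called complex V. They were examined in HCT116, an established human colorectal carcinoma line. Members were all probe sets annotated to a single gene symbol that names an NDUFA, NDUFB, NDUFC, NDUFS or NDUFV subunit of complex I, an SDH subunit of complex II, a UQCR subunit or CYC1 of complex III, a COX4 to COX8 subunit of complex IV, or an ATP5F1, ATP5M or ATP5P subunit of complex V. This gave 150 of 54675 probe sets, which stood for 78 genes, 2 of them pseudogenes. By complex I to V there were 32, 3, 7, 17 and 17 genes. A further 12 probe sets that carry such a symbol beside another were not members, and subunits without a probe set of their own were not analysed here.

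There were 4 Affymetrix arrays, 1 for each group. The groups were untransfected HCT116 cells, cells transfected with a non-targeting hairpin vector (shCTRL), and cells transfected with hairpin #1 or hairpin #2 against KSR1, a scaffold protein of the RAF, MEK and ERK kinases. All were grown in DMEM with serum. Lipofectamine carried the hairpins in, and puromycin selected the clones, per the labels. The labels name no promoter for the hairpins and do not say whether an array stands for a single clone. Each array differs from every other in vector, clone and culture at once, and these cannot be told apart. With 1 array a group there is no replicate check of any single group.

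Background knowledge of these genes is as follows. Complexes I and II pass electrons from NADH and succinate to coenzyme Q, complex III passes them to cytochrome c, and complex IV passes them to oxygen. Complexes I, III and IV pump protons out of the mitochondrial matrix, and complex V makes ATP as the protons return. Most subunits are encoded in the nucleus, translated in the cytosol and imported, while a small core is encoded by mitochondrial DNA, so the complexes need both genomes and many helper proteins to be built.

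Values are given as log2(intensity + 16), a scale that understates differences of dim probe sets. A gene took its probe set with the highest mean over the 4 arrays, and genes were analysed when that mean was at least 6.08, which is the median over all probe sets. Of the 78 member genes 71 passed, among 12468 genes in all, and of the 150 probe sets 122 passed, among 22733. Array medians of the linear intensity lay between 50.7 and 52.0. KSR1, the targeted gene, was at 7.82 in untransfected and 7.82 in shCTRL cells and at 7.30 and 7.54 with hairpins #1 and #2, a difference of -0.40 (SE 0.12, limma adjusted p = 0.67). Of 10 epithelial and colon markers 9 passed the filter, against 4 of 10 fibroblast, 1 of 7 measured leukocyte and 3 of 8 muscle markers. The summed intensity of all measured markers ranged over the arrays from 35217 to 45409 for the epithelial, from 794 to 893 for the fibroblast, from 241 to 262 for the leukocyte and from 1145 to 1424 for the muscle list. Actin control probes, which read RNA integrity, gave 3' over 5' intensity ratios of 2.68 for untransfected, 2.09 for shCTRL, 2.01 for hairpin #1 and 2.22 for hairpin #2 cells. GAPDH control probes gave 1.16, 1.17, 1.14 and 1.19 in the same order. The part of RNA integrity in the results was not tested.

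The subunit genes differed little between the 4 arrays. The range from the lowest to the highest array had a median of 0.18 log2 units over the 71 member genes, against 0.30 over all analysed genes and 0.28 over the 3683 bright genes whose mean reached the 90th percentile of all probe sets. It was under 0.3 in 60 members, or 84.5%, where 50.8% of all genes and 54.1% of the bright genes lay under that limit. On the log2(intensity + 16) scale no member was 2-fold apart in any of the 6 pairs of arrays, although the dim COX6B2 was over 2-fold apart between the hairpins in linear intensity. Of all genes, on the log2(intensity + 16) scale, 0.85% were between shCTRL and untransfected cells, 0.754% and 2.28% between hairpins #1 and #2 and untransfected cells, 0.545% and 1.9% between the hairpins and shCTRL, and 1.72% between the hairpins. At a limit of 0.3 log2 units (1.23-fold), 5 members differed between shCTRL and untransfected cells, where 17.5% of all genes did. Hairpin #1 differed from untransfected cells in 3 members and from shCTRL in 5, with 19.6% and 16.8% of all genes past the limit. Hairpin #2 differed from untransfected cells in 5 members and from shCTRL in 3, with 26.3% and 23.1% of all genes. Between the hairpins 2 members differed, with 18.9% of all genes past the limit. These pairs share arrays and are not independent of each other.

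**Figure D1:**
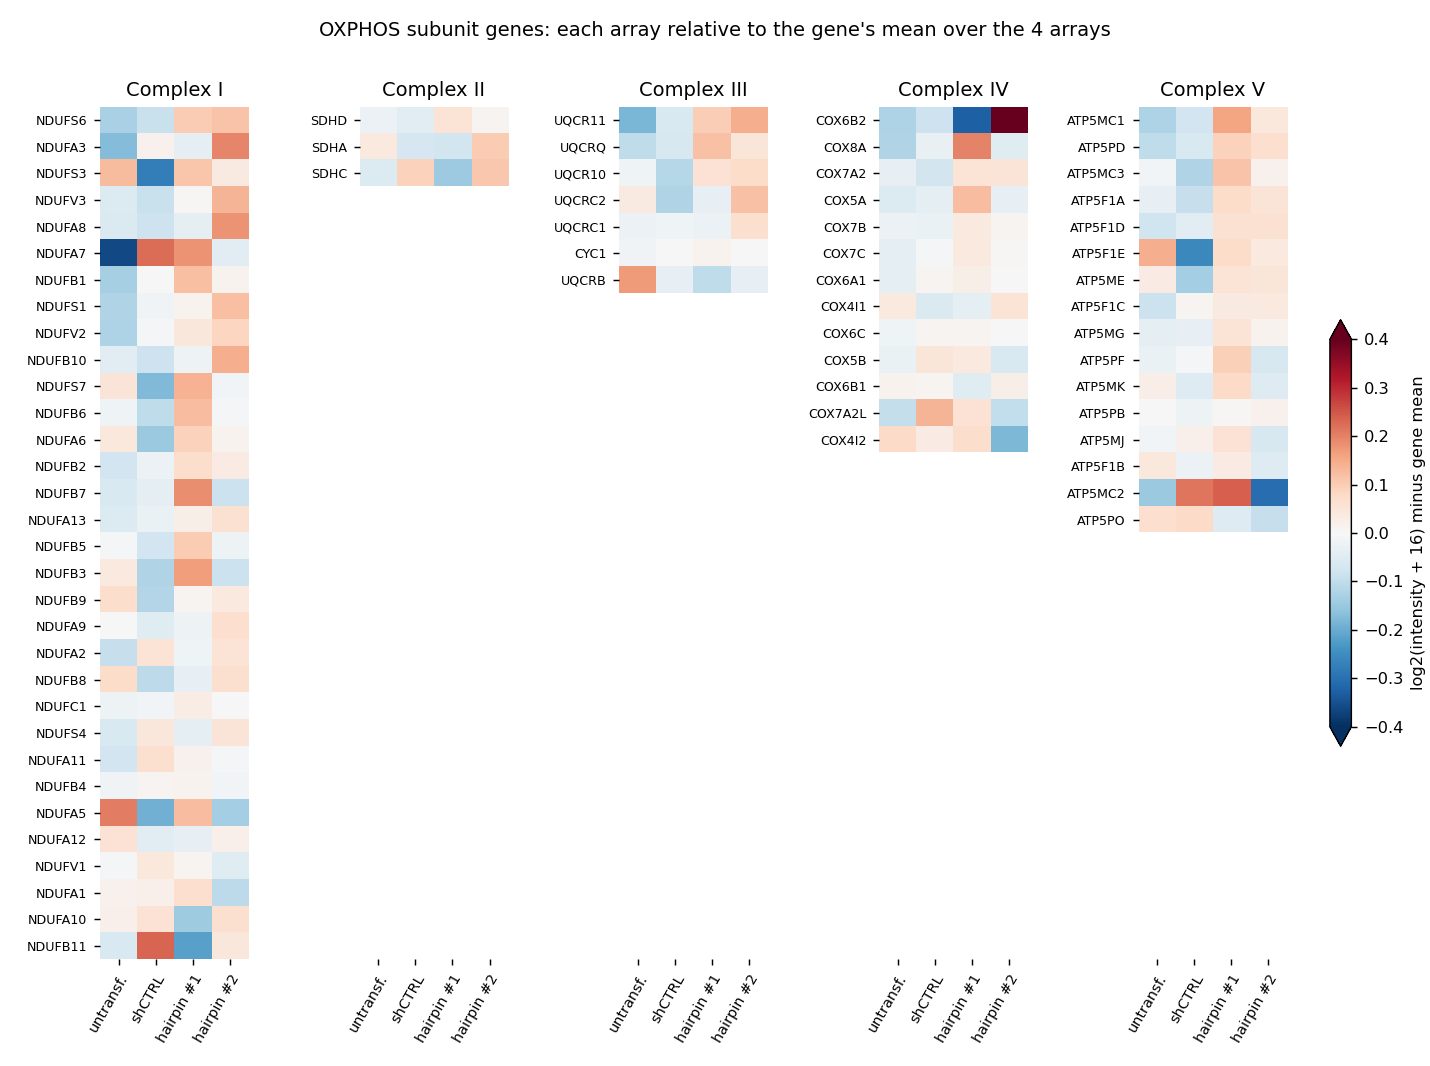
Heat map of the 71 analysed subunit genes, with a panel for each complex, a row for each gene and a column for each array. Colour gives log2(intensity + 16) minus the gene's mean over the 4 arrays, and rows are sorted by the difference between hairpin and other arrays. Most cells are pale, and the strongest colours belong to COX6B2, NDUFA7, ATP5MC2, NDUFS3, ATP5F1E and NDUFB11.

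The main comparison set both KSR1 hairpin arrays against the untransfected and shCTRL arrays. The difference, hairpin mean minus the mean of the others, ran from -0.17 for NDUFB11 to 0.24 for UQCR11 over the analysed member genes. By probe set it ran from -0.36 to 0.50, the latter in a probe set of NDUFS1. It was 0.3 or more in size in 8 of the 122 member probe sets, against 3187 of all 22733. Its median over the 71 genes was 0.067, where all analysed genes had 0.017. Of the 71, 55, or 77.5%, were above 0, against 54.1% of all genes. All bright genes had a median of 0.046 with 63% above 0, and the bright members 0.049 with 77.6% above 0. RNA came from whole cultures, so fewer expressing cells and less RNA per cell cannot be told apart. In limma, with the spread taken from both sides of the comparison and 2 residual degrees of freedom, 0 of the 71 genes passed an adjusted p under 0.05, and the smallest adjusted p among them was 0.67. At an unadjusted p under 0.05 there were also 0 member genes. Of all 12468 genes 882, or 7.07%, lay there and 0 (0%) passed after adjustment. By probe set 3 of 122 members (2.46%) lay there, against 7.47% of all analysed probe sets, and 0 of either passed after adjustment. With limma's variance trend 3 member genes and 878 of all genes lay at an unadjusted p under 0.05, and 0 of either passed after adjustment.

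Without a test, the arrays could be ordered. In 29 members, or 40.8%, both hairpin arrays lay above both others, where 22.5% of all genes did. In 2 members, or 2.82%, both lay below, where 18.4% of all genes did. Neither direction reached a distance of 0.2 log2 units between the nearest arrays in any member, although 3.25% of all genes were that far above and 2.7% that far below. Among the bright genes the background was 29% above and 12.6% below, and of the 67 members among them 29 were above and 2 below. The bright members had a median difference of 0.049 and all bright genes one of 0.046, so the distance between the medians of members and background was smaller in that range. The split of 29 above and 2 below was 21 and 5 after quantile normalization, where 17.7% and 22.3% of all genes were above and below, and 34 and 1 with each array centred on its median, where 26.6% and 15.2% were. With the mean over all of a gene's probe sets it was 21 and 5, or 29.6% and 7.04%, where 25.3% and 16.5% of all genes were above and below, so the upward share then lay near the background. Leaving out an array puts a single array on 1 side, and 8 members were then below without hairpin #2, 12 without hairpin #1 and 10 without either of the others, with 39 to 43 above. Under the same omissions 31.3% to 33.5% of all genes were below and 35.8% to 39.7% above. By probe set, 40 of 122 were above and 8 below, against 23.7% and 16.9% of all analysed probe sets.

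**Figure D2:**
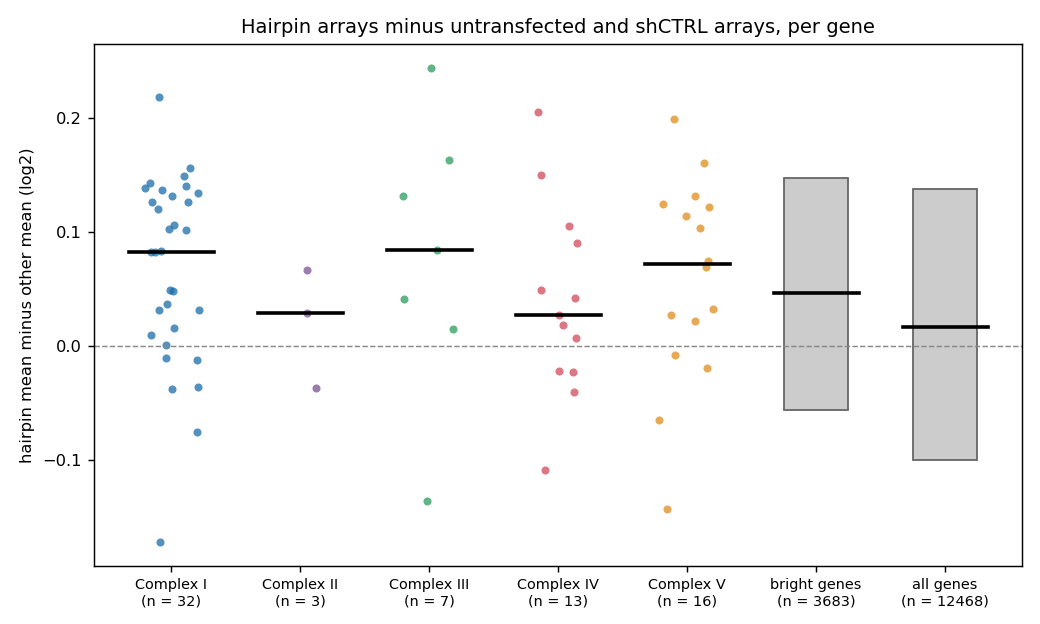
Difference between the mean of both KSR1 hairpin arrays and the mean of the untransfected and shCTRL arrays (log2 units), with a point for each analysed subunit gene and a black line at the median of each complex. Grey boxes span the middle 50% of the 3683 bright genes and of all 12468 genes; the complex medians lie between 0.027 and 0.084, inside both boxes.

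Each array's place relative to the others was then described. Hairpin #1 was the highest array in 31 members (43.7%, against 23.3% of all genes) and hairpin #2 in 22 (31%, against 30.1%). Untransfected and shCTRL cells were each the highest in 9, where 22.4% and 24.2% of all genes had them highest. ShCTRL was the lowest array in 26 members (36.6%, against 22.9% of all genes), and untransfected cells were in 27 (38%, against 30.3%). Hairpin #1 was the lowest in 7 members and hairpin #2 in 11, where 21.6% and 25.1% of all genes had them lowest. Of the 3683 bright genes, 1137 had hairpin #1 highest, 1106 hairpin #2, 744 untransfected and 696 shCTRL cells. The lowest array of the bright genes was untransfected in 1142, shCTRL in 1135, hairpin #2 in 916 and hairpin #1 in 490. Over the members, the median of the array value minus the gene mean was -0.024 for untransfected, -0.032 for shCTRL, 0.039 for hairpin #1 and 0.020 for hairpin #2 cells. Against shCTRL the member median was 0.054 for either hairpin. With hairpins #1 and #2, 53 (74.6%) and 51 (71.8%) of 71 members were higher, against 50.6% and 51.5% of all genes. The bright genes had medians of 0.058 and 0.034 there, with 63.5% and 57.1% higher. Hairpin #1 thus gave members a median no higher than that of the bright genes. Against untransfected cells the member median was 0.063 and 0.035, with 52 and 48 members higher, against 53.8% and 54.4% of all genes. The bright genes had 0.051 and 0.031, with 61.6% and 56.7% higher. ShCTRL minus untransfected had a member median of 0.011 with 40 members higher, against 54% of all genes. Hairpin #2 minus hairpin #1 had -0.023 with 28 members higher, against 51.3%. The bright genes had -0.0030 with 49.3% higher and -0.023 with 44.6% higher.

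The complexes were compared by the median of the same difference. Complex III had 0.084, complex I 0.083 and complex V 0.072, and complexes II and IV had 0.029 and 0.027. Both hairpin arrays were above both others in 11 of 32 genes of complex I (34.4%), 1 of 3 of complex II (33.3%), 4 of 7 of complex III (57.1%), 4 of 13 of complex IV (30.8%) and 9 of 16 of complex V (56.2%), against 22.5% of all and 29% of the bright genes. Both were below in 1 gene each of complexes III and V and in 0 of the other complexes, against 18.4% of all and 12.6% of the bright genes. Differences between complexes were not tested, and the medians depended on the hairpin. Hairpin #2 minus hairpin #1 had medians of -0.0062, 0.17, 0.045, -0.029 and -0.042 for complexes I to V, so complex II was higher with hairpin #2 and complex V with hairpin #1. Against shCTRL, complex V had 0.10 with hairpin #1 and 0.042 with hairpin #2, and complex III had 0.087 and 0.11. The complex III median was 0.022 without hairpin #2, 0.045 without shCTRL, 0.13 without hairpin #1 and 0.14 without untransfected cells. That of complex II was -0.058 without hairpin #2, 0.089 without hairpin #1 and 0.076 without untransfected cells. The complex IV median was 0.052 without shCTRL and 0.016 without hairpin #1, and the complex V median was 0.11 without hairpin #2. Complex V had 0.027 without probe sets prone to cross-hybridisation, whose identifiers end in _x_at, and 0.035 with the mean over probe sets, where complexes I and III had 0.062 and 0.047. After quantile normalization complexes I and III had 0.055 and 0.043.

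In complex I, the entry point for electrons from NADH, the 14 analysed genes of the matrix arm had a median difference of 0.12 and the 18 of the membrane arm 0.082. Both hairpin arrays were above both others in 4 (28.6%) and 7 (38.9%) of them, against 22.5% of all and 29% of the bright genes. The share of the matrix arm was thus near that of the bright genes. Both were below in 0, against 18.4% of all and 12.6% of the bright genes. NDUFS6, a zinc-binding accessory subunit of the matrix arm, was at 11.71 in untransfected, 11.75 in shCTRL, 11.94 in hairpin #1 and 11.95 in hairpin #2 cells. Its sides did not overlap, and the difference was 0.22 (SE 0.090, limma adjusted p = 0.67), or 1.16-fold. It lay between 0.18 and 0.24 under the 13 alternative settings. NDUFA3, a small membrane arm subunit, was at 10.61, 10.81, 10.75 and 10.98 in the same order, so shCTRL lay between the hairpins. NDUFV3, an accessory subunit near the NADH-binding tip, was at 9.84, 9.80, 9.89 and 10.03, with both hairpin arrays above the others by at least 0.059.

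In several complex I genes the hairpin arrays overlapped with the others. NDUFS3, a core subunit of the quinone-reducing part, was at 10.24 in untransfected, 9.84 in shCTRL, 10.22 in hairpin #1 and 10.15 in hairpin #2 cells, so shCTRL stood below the other 3. NDUFS7, an iron-sulfur subunit beside the quinone site, was likewise lowest in shCTRL, at 9.48, 9.25, 9.57 and 9.42. NDUFA5, an accessory subunit of the matrix arm, was at 11.15, 10.76, 11.07 and 10.81, low in shCTRL and hairpin #2. NDUFA7 was at 9.56, 10.15, 10.11 and 9.88, a shCTRL minus untransfected difference of 0.59, the largest among the members. Its dimmer probe set had 7.62, 7.36, 7.50 and 7.40, the opposite order between untransfected cells and shCTRL. NDUFB11, a membrane arm subunit, was at 10.78, 11.08, 10.63 and 10.89, and its -0.17 (SE 0.16) is the lowest difference of all member genes. NDUFB7 was at 9.44, 9.47, 9.69 and 9.42, high with hairpin #1 alone.

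Complex II, which is also the succinate dehydrogenase of the citric acid cycle, had 3 measured genes. SDHA, the flavoprotein that oxidises succinate, was at 11.01 in untransfected, 10.91 in shCTRL, 10.90 in hairpin #1 and 11.08 in hairpin #2 cells, with a difference of 0.029 (SE 0.11). SDHC, a membrane anchor, was at 10.28, 10.43, 10.20 and 10.45, so that the hairpins lay at opposite ends. Its 7 probe sets gave differences from -0.037 to 0.30. SDHD, the other anchor, was at 11.50, 11.48, 11.58 and 11.54, with both hairpin arrays above the others by 0.035.

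By the brightest probe set of each gene, complex III held the widest difference upward and a gene that went the other way. UQCR11, a small supernumerary subunit, was at 11.67 in untransfected, 11.79 in shCTRL, 11.95 in hairpin #1 and 11.99 in hairpin #2 cells, which gave 0.24 (SE 0.099, limma adjusted p = 0.67), or 1.18-fold. Its second probe set was dimmer, at 8.23, 8.08, 8.10 and 7.90, and had a difference of -0.15. With the mean over its probe sets the difference was 0.047. UQCRQ, which sits beside cytochrome b, was at 11.62, 11.66, 11.84 and 11.77, and UQCR10 at 12.07, 11.97, 12.14 and 12.16, with both hairpins above the others in each. UQCRC2, a core protein related to matrix processing peptidases, was at 11.92, 11.76, 11.85 and 12.00, with overlapping sides. UQCRB, a subunit of the ubiquinol-binding part, was at 12.84, 12.63, 12.56 and 12.63. Its difference was -0.14 (SE 0.11), all 3 analysed probe sets were negative, hairpin #2 minus shCTRL was only -0.00098, and the untransfected array stood apart from the other 3.

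Complex IV is the cytochrome c oxidase, and its nuclear subunits include isoforms made in particular tissues. The 10 ubiquitous isoforms analysed had a median difference of 0.034, with 4 above (40%) and 0 below. Of all genes 22.5% were above and 18.4% below, and of the bright genes 29% and 12.6%. COX4I1, the ubiquitous form of subunit 4, was at 13.23 in untransfected, 13.13 in shCTRL, 13.16 in hairpin #1 and 13.25 in hairpin #2 cells, with a difference of 0.019 (SE 0.10). COX7A2 was at 12.66, 12.62, 12.75 and 12.75, and COX5A at 12.40, 12.42, 12.58 and 12.42, where the hairpin #2 array exceeded shCTRL by only 0.0025. COX7B was at 12.19, 12.19, 12.25 and 12.22, and COX8A at 11.72, 11.81, 12.04 and 11.79, high with hairpin #1. COX6A1 at 12.31, 12.36, 12.37 and 12.35 and COX6B1 at 11.86, 11.86, 11.80 and 11.87 varied by less than 0.1. COX7A2L, a factor that joins complexes III and IV into supercomplexes, was at 10.83, 11.06, 10.98 and 10.82.

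The tissue-restricted isoforms were dim in these cells. COX6A2 and COX7A1, the heart and muscle forms, and COX7B2 and COX8C, known from testis, were below the filter, with linear intensities from 8.44 to 53.6 on the 4 arrays. COX4I2, the form of subunit 4 known from lung and induced by hypoxia, was just above it, with intensities of 68.6 in untransfected, 66.0 in shCTRL, 68.2 in hairpin #1 and 54.7 in hairpin #2 cells. COX6B2, the testis form of subunit 6B, had 54.0, 56.0, 44.8 and 94.2. Its distance of 0.86 between the hairpins on the log2 scale was the widest of any member gene in any pair. On that scale it was at 6.13, 6.17, 5.93 and 6.78 in the same order. Without the hairpin #2 array its mean would lie just under the filter level of 6.08. Its wide distance between the hairpins is thus no support for a difference. The remaining members below the filter were the pseudogenes COX6A1P1 and ATP5MC2P1 and the only probe set of ATP5MF, whose intensities lay between 47.4 and 54.0.

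In the ATP synthase, the catalytic head and central stalk had a median difference of 0.11 over 5 genes, the c-ring 0.13 over 3, the supernumerary membrane subunits 0.048 over 4 and the peripheral stalk 0.027 over 4. ATP5F1A, the alpha subunit of the head, was at 13.51 in untransfected, 13.45 in shCTRL, 13.61 in hairpin #1 and 13.59 in hairpin #2 cells, a difference of 0.12 (SE 0.092). ATP5F1E, the epsilon subunit, was at 12.45, 12.05, 12.38 and 12.35, with shCTRL alone low. The peripheral stalk, which keeps the head from turning, held a gene of each direction. ATP5PD, its d subunit, was at 12.68, 12.72, 12.87 and 12.85, a difference of 0.16 (SE 0.091). ATP5PO, the subunit that fastens the stalk to the head, was at 12.76, 12.77, 12.64 and 12.60, a difference of -0.14 (SE 0.091). The dimmer analysed probe sets gave -0.076 for ATP5PD and -0.019 for ATP5PO.

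The c-ring turns as protons pass, and 3 genes encode precursors of the same mature c subunit. ATP5MC1 was at 11.27 in untransfected, 11.32 in shCTRL, 11.55 in hairpin #1 and 11.44 in hairpin #2 cells, with a difference of 0.20 (SE 0.098, limma adjusted p = 0.67). ATP5MC3 was at 12.29, 12.18, 12.41 and 12.32, and all 3 of its probe sets had both hairpin arrays above both others. ATP5MC2 was at 10.86, 11.23, 11.25 and 10.71, low in untransfected and hairpin #2 cells, so that the hairpins were 0.54 apart and the sides overlapped. The pseudogene ATP5MC2P1 was also highest in shCTRL and hairpin #1 cells, at low intensities of 43.7, 59.3, 51.2 and 42.7, and the part that shared sequence of the gene and the pseudogene has in either value was not tested.

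**Figure D3:**
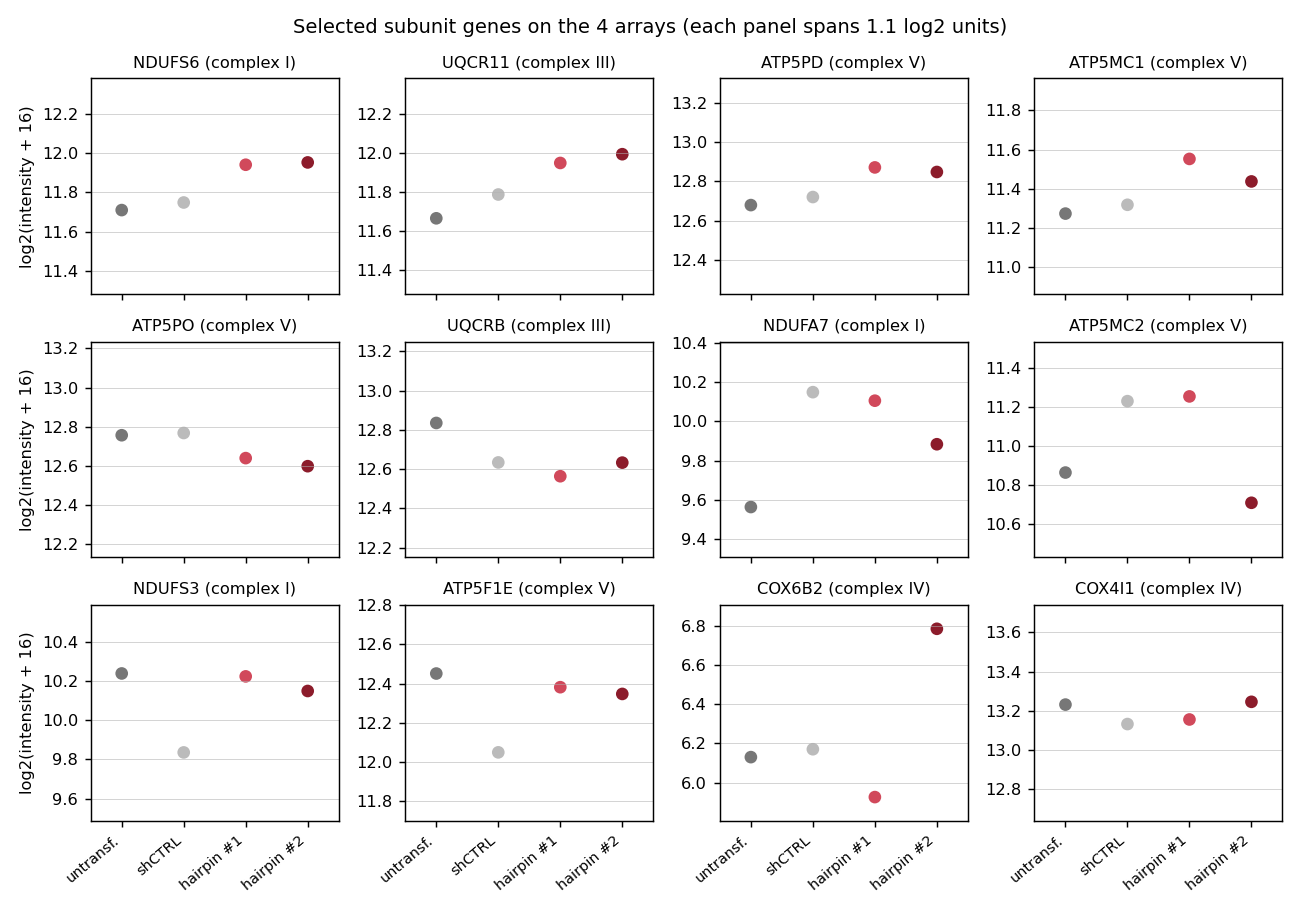
Values of 12 subunit genes on the 4 arrays as log2(intensity + 16), with a panel for each gene; each panel spans 1.1 log2 units, so distances can be compared but levels between genes cannot. In NDUFS6, UQCR11, ATP5PD and ATP5MC1 both hairpin arrays are above the others, in ATP5PO they are below, and in NDUFA7, ATP5MC2, NDUFS3, ATP5F1E and COX6B2 the sides overlap.

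Different probe sets of a gene did not always give a common direction. Of 32 member genes with 2 or more analysed probe sets, 20 had the same sign of the difference in all of them and 12 did not. The widest distances were those of ATP5F1C (from -0.31 to 0.091) and NDUFB8 (from -0.36 to 0.037), in both of which a dim probe set opposed bright ones. These 2 were chosen after their values were seen.

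Promoter sequences were looked at because the subunit genes are known to share activators, among them NRF1, the ETS factor GABP and YY1. RefSeq (GRCh38.p14) gave a window from 250 bases before to 50 after the first listed start for 61 of the 71 genes. Matches were searched on both strands for GCGCANGCG, a core of the NRF1 site, for CCGGAAG, an ETS motif, and for AAGATGGCG, a YY1 motif. The NRF1 core is nearly its own reverse complement, so both strands can match at overlapping places. It was in 20 of 61 member windows, or 32.8%, against 8.05% of the 27305 genes with a window and 14.4% of the 10100 analysed genes among them. The ETS motif was in 18, or 29.5%, against 10.7% and 18.9%, and the YY1 motif in 7, or 11.5%, against 1.85% and 3.85%. By complex I to V the NRF1 core was in 8 of 30, 2 of 2, 3 of 5, 1 of 11 and 6 of 13 windows. Complex IV had the ETS motif in 5 of its 11 windows and the YY1 motif in 0. A match describes these letters and no binding. The 250 bases before the start are printed for the 3 genes with the widest distance of the hairpin arrays above the others and the gene with the widest distance below, in that order, with motif matches in capitals, on chromosomes 5 (plus strand, chr5:1801157-1801406), 19 (minus strand, chr19:1605463-1605712), 17 (minus strand, chr17:75046970-75047219) and 21 (minus strand, chr21:33915805-33916054).
NDUFS6: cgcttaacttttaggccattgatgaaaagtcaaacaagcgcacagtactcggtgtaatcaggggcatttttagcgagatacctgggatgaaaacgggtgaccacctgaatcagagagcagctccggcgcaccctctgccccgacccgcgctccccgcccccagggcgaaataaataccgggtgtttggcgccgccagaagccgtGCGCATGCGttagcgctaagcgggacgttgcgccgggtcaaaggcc
UQCR11: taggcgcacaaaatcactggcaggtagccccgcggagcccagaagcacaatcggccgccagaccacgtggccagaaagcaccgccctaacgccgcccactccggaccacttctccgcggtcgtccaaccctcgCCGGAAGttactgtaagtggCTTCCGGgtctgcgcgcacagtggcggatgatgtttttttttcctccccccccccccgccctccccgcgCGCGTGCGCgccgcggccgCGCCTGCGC
ATP5PD: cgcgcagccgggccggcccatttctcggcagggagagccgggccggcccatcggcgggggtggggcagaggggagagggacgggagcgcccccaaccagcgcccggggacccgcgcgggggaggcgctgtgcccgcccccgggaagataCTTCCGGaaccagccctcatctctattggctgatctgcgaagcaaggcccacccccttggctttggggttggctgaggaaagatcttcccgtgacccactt
ATP5PO: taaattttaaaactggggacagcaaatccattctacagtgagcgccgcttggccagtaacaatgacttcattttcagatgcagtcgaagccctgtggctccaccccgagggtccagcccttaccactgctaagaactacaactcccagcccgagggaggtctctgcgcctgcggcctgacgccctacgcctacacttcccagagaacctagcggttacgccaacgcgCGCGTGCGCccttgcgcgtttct
The NDUFS6 window held an NRF1 core that begins 46 bases before the start. The UQCR11 window held ETS motifs that begin 117 and 97 bases before the start and NRF1 cores at 28 and 9 bases before it. The ATP5PD window held an ETS motif at 101 bases and the ATP5PO window an NRF1 core at 23 bases before the start. These 4 genes were picked by their values, and a relation of motifs to direction was not tested.

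The subunits encoded by mitochondrial DNA, which are no members, were measured by 10 probe sets of 7 genes. MT-CO1, MT-CO2, MT-ND2 and MT-ND4 and the brighter set of MT-ATP6 had intensities from 14311 to 25887, and their hairpin minus other differences ran from -0.065 to 0.052. MT-CO1 was closest to the top, with 24268 to 25887, where the highest values of the arrays lay between 25716 and 26251. MT-ND6, the only messenger RNA of the light strand, had 225 in untransfected, 238 in shCTRL, 885 in hairpin #1 and 304 in hairpin #2 cells. Its log2 difference of 1.12 (SE 0.50, limma adjusted p = 0.67) lay mostly in the hairpin #1 array. MT-CO3 had 1166 in untransfected and between 745 and 840 in the other cells.

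**Figure D4:**
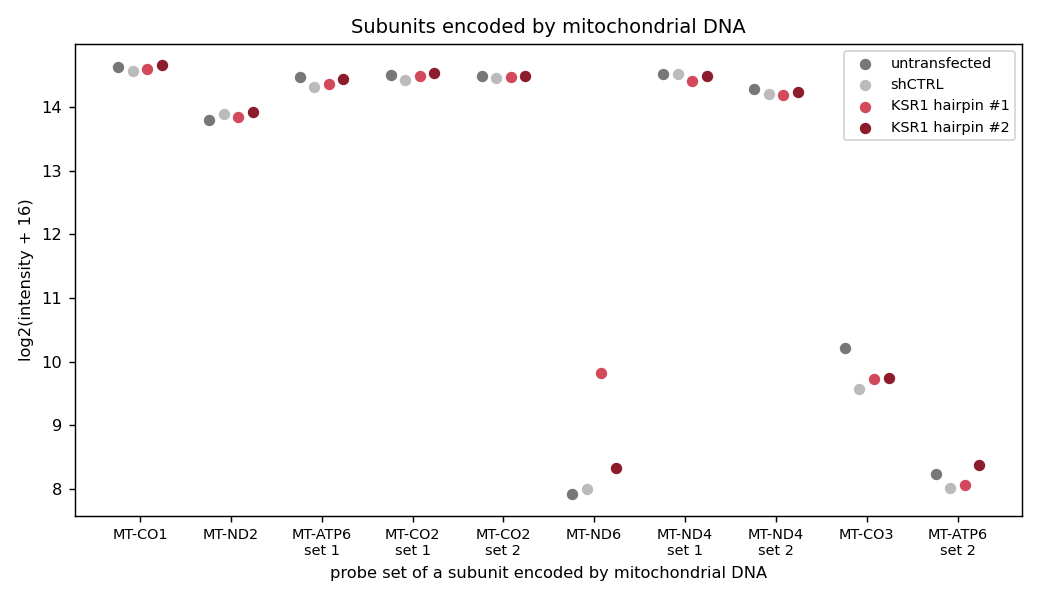
log2(intensity + 16) of the 10 probe sets of subunits encoded by mitochondrial DNA, with a point for each array; a gene with more than 1 probe set has numbered sets. Most sets have their 4 arrays close together near the top of the scale, and MT-ND6 stands out with hairpin #1 at 9.82 against 7.91 to 8.32 on the other arrays.

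Other genes that build or feed the complexes were counted from lists, against the same background of 22.5% above and 18.4% below. The bright genes, among them 38 of the 40 mitochondrial ribosomal proteins listed, had 29% above and 12.6% below. The lists were chosen with earlier results of these data known, so their counts are no independent support for a difference. The assembly factors of complex I, which are not part of the finished complex, had both hairpin arrays above both others in 13 of 20 (65.0%) and below in 0, with a median difference of 0.27. NDUFAF4 was at 10.16 in untransfected, 10.05 in shCTRL, 10.53 in hairpin #1 and 10.50 in hairpin #2 cells (0.41, SE 0.10), and TMEM126B at 11.29, 11.09, 11.52 and 11.60 (0.37, SE 0.115). COA1 had a difference of 0.37 (SE 0.16). Limma passed 0 of the 20 after adjustment, with 6 (30%) at an unadjusted p under 0.05, against 7.07% of all genes. The median lay between 0.18 and 0.31 under the alternatives. Without hairpin #1 and without hairpin #2, 2 were below in each case, where 33.4% and 31.7% of all genes were. The complex I subunits, by the same count, had 34.4% above and a median of 0.083. The difference between the lists was not tested.

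For the other complexes, assembly factors above both others numbered 4 of 8 for complex III, 9 of 27 for complex IV and 4 of 7 for complex V with its inhibitor ATP5IF1, with 0, 2 and 0 below and medians of 0.19, 0.052 and 0.098. These medians moved by over 1.5 times. That of complex III was 0.093 with the mean over probe sets, 0.13 without shCTRL and 0.13 without hairpin #1. That of complex IV was 0.025 after quantile normalization, 0.087 without untransfected cells and 0.096 with the filter at the 75th percentile. With 33.3% above, the complex IV factors lay near the 29% of the bright genes. The complex IV counts reached 15 above and 6 below without shCTRL, where 39.7% and 31.3% of all genes were above and below. The complex V median was 0.044 after quantile normalization, 0.15 without untransfected cells and 0.20 without hairpin #2. UQCC3 had a difference of 0.36 (SE 0.094), COX11, which delivers copper to complex IV, 0.38 (SE 0.092), and ATPAF2 0.39 (SE 0.14). The 4 factors of complex II had 0 in either direction. Mitochondrial ribosomal proteins, which translate the subunits encoded by mitochondrial DNA, had 25 of 40 above (62.5%) and 2 below with a median of 0.13, led by MRPL20 (0.44, SE 0.10). Of the 40, 19 were above after quantile normalization, where 17.7% of all genes were. Without untransfected cells 3 were below, without shCTRL 6 and without hairpin #1 8, where 33.5%, 31.3% and 33.4% of all genes were. Import and carrier genes had 12 of 23 above and 3 below, electron carriers and coenzyme Q synthesis 9 of 19 above and 2 below, and the citric acid cycle 3 of 17 above and 1 below. In the citric acid cycle list IDH2 was at 9.21, 9.28, 8.62 and 8.80 (-0.54, SE 0.11). In each of these lists limma passed 0 genes after adjustment, and the background at an unadjusted p under 0.05 was 7.07%. There lay 2, 1 and 2 of the factors of complexes III, IV and V (25%, 3.7% and 28.6%), 0 of those of complex II, 5 ribosomal proteins (12.5%), 5 import and carrier genes (21.7%), 3 of the electron carrier and coenzyme Q list (15.8%) and 2 of the citric acid cycle list (11.8%). Across the alternatives, import and carrier genes had 11 to 16 above and 2 to 5 below. Electron carriers and coenzyme Q synthesis had 2 to 11 above and 1 to 6 below. The citric acid cycle had 2 to 8 above and 0 to 5 below. Of all genes, 17.3% to 39.7% were above and 12.6% to 33.5% below across the alternatives.

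**Figure D5:**
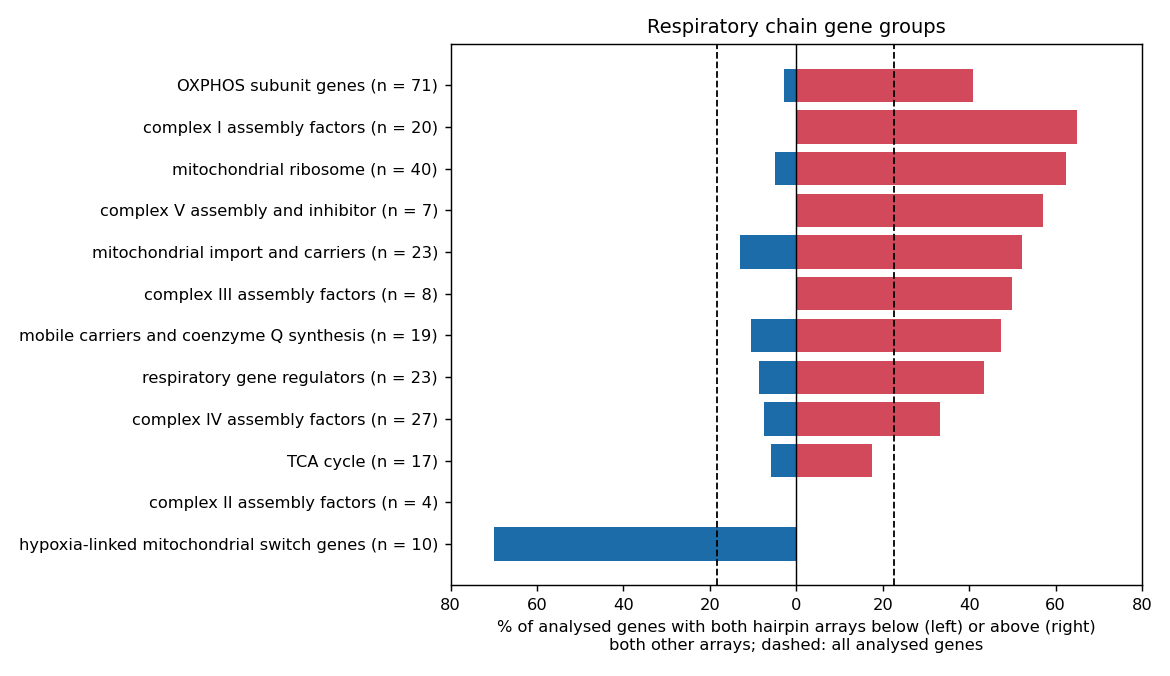
Share of the analysed genes in each group with both KSR1 hairpin arrays below (blue, to the left) or above (red, to the right) both other arrays, in percent; the dashed lines mark all analysed genes, at 18.4% below and 22.5% above. Subunits reach 40.8% above, complex I assembly factors 65.0%, and the hypoxia-linked list 70.0% below. The lists were chosen with earlier results of these data known.

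Among regulators of respiratory genes, 10 of 23 were above and 2 below, against 22.5% and 18.4% of all genes. After quantile normalization 7 were above and without untransfected cells 16, where 17.7% and 35.8% of all genes were. Without shCTRL 7 were below and without hairpin #1 6, where 31.3% and 33.4% of all genes were. PRKAA2 encodes a catalytic subunit of AMPK, an energy sensor, and had the widest difference (2.25, SE 0.43). It was at 5.00 in untransfected, 6.28 in shCTRL, 7.89 in hairpin #1 and 7.88 in hairpin #2 cells. The mean over the untransfected and shCTRL arrays was 5.64, below the filter level of 6.08. PRKAA2 thus passed the filter only through the hairpin arrays, and its place among the 10 above is no support for a difference. The coactivator PPARGC1B was at 7.63 in untransfected, 7.41 in shCTRL, 7.88 in hairpin #1 and 7.61 in hairpin #2 cells, with overlapping sides, and PPARGC1A was below the filter. ESRRA, the nuclear receptor they act with, had a difference of -0.045 (SE 0.095), NRF1 0.17 (SE 0.10), GABPA -0.15 (SE 0.13), TFAM, which packs and transcribes mitochondrial DNA, 0.17 (SE 0.17), and MYC -0.084 (SE 0.093). Cytochrome c (CYCS) had 0.11 (SE 0.095). The list of hypoxia-linked mitochondrial genes had 7 of 10 below and 0 above, with a median of -0.78. It too was chosen with earlier results of these data known, so its counts are no independent support for a difference. The median was -0.46 with the mean over probe sets and lay between -0.82 and -0.61 under the other alternatives. Across all alternatives 6 to 9 were below, where 12.6% to 33.5% of all genes were. PDK1, a mitochondrial kinase that inhibits pyruvate dehydrogenase, had -0.94 (SE 0.29), FAM162A -0.83 (SE 0.115) and the mitophagy gene BNIP3 -0.82 (SE 0.13). COX4I2, a subunit in that list, had -0.11 (SE 0.12). By limma 0 of the 10 passed after adjustment, as did 0 of the 23 regulators. At an unadjusted p under 0.05 lay 6 of the 10 (60%) and 1 of the 23 (4.35%), which was PRKAA2, against 7.07% of all genes.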

How the data were processed

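The deposited values are intensity values on a linear scale, 1 per probe set and array, as the authors made them. Per the labels, cRNA was labelled with biotin. The steps of background correction, summary and normalization were not given in the sources used here. Values were taken as deposited. Probe sets were named from the platform annotation, and 41043 of the 41097 with 1 symbol matched a RefSeq gene identifier. Members and lists were chosen with earlier results of these data known. Genes past the filter were fitted together with limma 3.58.1 in R 4.3.3 (lmFit, eBayes, Benjamini-Hochberg), both hairpin arrays against both others. The spread behind each p-value is thus that of unlike cultures on either side. Exact permutation of 2 arrays against 2 cannot go below p = 0.333. The number of arrays limits the precision. Named members were, in each complex, the 5 with the largest difference, all with 0.2 log2 units between the sides or 1 between any arrays, the 4 highest and lowest between shCTRL and untransfected cells and between the hairpins, the SDH genes, and tissue-restricted or duplicated subunits. Beyond the members, KSR1, regulators and carriers and up to 3 genes of each list were named. Alternatives covered filters, probe set choice, scaling, pseudocounts of 1 and 64, and leaving out each array.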

Additional observations from a re-analysis of the deposited data

How the results depend on the processing

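No member passed limma after adjustment under any of the 13 alternatives, and the number above both others stayed within 1.5 times of 29. Of all genes, 17.3% to 39.7% were above across the alternatives. With the mean over probe sets 21 members (29.6%) were above, near the 25.3% of all genes. After quantile normalization 21 were above too, where 17.7% of all genes were. With an array left out 39 to 43 were above, where 35.8% to 39.7% of all genes were. The number below was 6 with no filter, 5 after quantile normalization, 5 with the mean over probe sets and 1 with arrays centred on their median, where 22.6%, 22.3%, 16.5% and 15.2% of all genes were below. The median difference over members was 0.045 with no filter, 0.049 with the filter at the 90th percentile, which was chosen after seeing the data, 0.048 with the mean over probe sets, 0.052 without _x_at probe sets, 0.051 after quantile normalization and 0.089 with centring. For complex I it was 0.055 after quantile normalization, 0.062 with the mean over probe sets and 0.10 with centring, for complex III 0.043 and 0.047 with the first and second of these, and for complex V 0.035 with the mean over probe sets and 0.027 without _x_at probe sets. Leaving out an array gave 8 to 12 members below, where 31.3% to 33.5% of all genes were, and medians from 0.049 to 0.071 over members, from 0.057 to 0.075 for complex I, from 0.022 to 0.14 for complex III, from 0.016 to 0.052 for complex IV and from 0.057 to 0.11 for complex V. The lone array left on a side was taken to vary like the other side. The cause of these moves was not tested. Of the 71 members 35 kept their sign under all 13 alternatives, and 2 more under the 12 that could be run for them. Values of the other gene lists that moved stand beside those lists. No paired analysis was possible because each group has 1 array and the labels carry no replicate numbers. Members below the filter have intensities too low to rank.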
